A study of Homo sapiens with 4 samples.

Results

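The genes of the insulin-like growth factor (IGF)-binding proteins IGFBP2, IGFBP3, IGFBP4, IGFBP6 and IGFBP7 and of the IGF receptors IGF1R and IGF2R were examined in RNA-sequencing of STAU1-silenced SAS cells, a human oral squamous carcinoma line. These 7 genes of the 67008 in the deposited table were picked by name, with their values in this comparison already known, so their values are a description, no p-value is given for them, and a statement that one of them was called only places it in the fit over all genes and is not independent evidence. Control cells (Ctrl, 2 libraries) had been infected with virus carrying an shRNA against luciferase (shLuc), and the other 2 libraries came from cells infected with an shRNA against STAU1 (shSTAU1), a protein that binds double-stranded RNA. All 4 libraries have the genotype WT and viral infection as the treatment in their labels, and the shRNAs were made in the pLKO system. The labels also name a mouse line, C3H 10T1/2, as the source, while they give the organism as human, and the growth protocol and the series description give SAS cells. Neither the labels nor the methods say that the libraries of a group came from separate cultures, so p-values measure only the spread between these libraries, which may be technical.

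IGF1 and IGF2 are secreted ligands that act through IGF1R, a receptor tyrosine kinase that signals through IRS proteins, PI3-kinase and AKT. The IGF-binding proteins are secreted too and hold the ligands outside the cell and in blood, which limits or prolongs their access to the receptor, and proteases release the ligands by cutting the binding proteins. IGF2R, the cation-independent mannose 6-phosphate receptor, has no kinase domain, takes up IGF2 for degradation and carries newly made lysosomal enzymes to the lysosome.

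The binding proteins share an amino-terminal domain rich in cysteines, whose family signature reads glycine, cysteine, glycine, cysteine, cysteine, any pair of residues, cysteine. The coding stretch that holds it, with 2 codons on each side, is shown for the 5 binding proteins to make visible how alike they are and where they part. The sequences are those of GENCODE 29 transcripts, 5′ to 3′ along the coding strand, with cysteine codons in capitals and bases counted from 1 at the A of the start codon.
IGFBP2, bases 241 to 276: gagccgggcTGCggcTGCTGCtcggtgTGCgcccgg
IGFBP3, bases 190 to 225: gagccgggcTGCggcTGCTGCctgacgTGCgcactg
IGFBP4, bases 148 to 183: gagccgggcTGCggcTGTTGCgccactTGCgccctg
IGFBP6, bases 154 to 195: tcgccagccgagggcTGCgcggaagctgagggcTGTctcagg
IGFBP7, bases 160 to 195: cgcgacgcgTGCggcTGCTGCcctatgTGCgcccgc
IGFBP2, IGFBP3 and IGFBP4 hold the signature, with 4 cysteine codons in the stretch. IGFBP6, which binds IGF2 in preference to IGF1, has 2 cysteine codons in the stretch that aligned with that of IGFBP3. IGFBP7, which binds IGFs only weakly, has 4 cysteine codons in the same spacing but no exact match to the signature. Over the whole coding sequence the 5 genes have from 16 (IGFBP6) to 21 (IGFBP4) cysteine codons. In a global alignment of the translated sequences with IGFBP3, 40.1% of the aligned residues of IGFBP4, 39.9% of IGFBP6, 37.5% of IGFBP2 and 29.7% of IGFBP7 were identical. The proteins are thus relatives but not near-identical copies, and whether the genes share reads was not tested.

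The totals ran from 32206655 to 36301574 counts per library, and 14303 genes passed the filter on low counts, with all 7 genes among them. STAU1, the targeted gene, had 8362 and 8218 counts in Ctrl and 1449 and 1467 in shSTAU1, a log2 fold change of -2.59 (SE 0.13, adjusted p = 0.00103, edgeR's quasi-likelihood test with Benjamini-Hochberg adjustment). Over all genes, 161 (1.13%) were called higher and 211 (1.48%) lower in shSTAU1 at an adjusted p under 0.05. With library size in place of TMM scaling these numbers were 132 and 272. Both shSTAU1 libraries lay above both Ctrl libraries in 28.5% of tested genes and below them in 28.0%. The 8 squamous epithelial markers summed to 7474 and 7120 CPM (counts scaled to a common library size by TMM) in Ctrl and to 11436 and 8496 CPM in shSTAU1. The sum was carried by keratins such as KRT5, itself called higher (log2 fold change 0.65, adjusted p = 0.0408, edgeR), while DSG3 (-0.76) and CDH1 (-0.29) were not called and lay below 0. The 6 fibroblast markers summed to 17.5 and 22.1 CPM in Ctrl and 10.4 and 9.99 CPM in shSTAU1. Of these, COL3A1, DCN and LUM had at most 1 count in any library, COL1A1 was called lower (527 and 663 counts against 273 and 221) and COL1A2 had 40 and 55 counts against 75 and 128. The sum of 3 leukocyte markers was 0.18 and 0.15 CPM in Ctrl and 1.15 and 0.71 CPM in shSTAU1, and that of 3 endothelial markers overlapped between the groups (18.0 and 15.3 against 17.0 and 7.44 CPM). Any part of these markers in the results was not tested.

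Of the 7 genes, IGFBP3 was among the genes called higher after STAU1 knockdown (1 of 7, beside 1.13% of all tested genes) and IGF2R was among those called lower (1 of 7, beside 1.48%), shares from which nothing is read since these genes were chosen on this contrast. Both shSTAU1 libraries lay above both Ctrl libraries for IGFBP2, IGFBP3 and IGFBP6 (beside 28.5% of all tested genes) and below them for IGF2R (beside 28.0%). The groups overlapped for IGFBP4, IGFBP7 and IGF1R. The median log2 fold change was 0.34 over the 7 genes and 0.0059 over all 14303. In these bulk libraries, fewer cells that express a gene and less of its RNA per cell cannot be told apart.

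**Figure D1:**
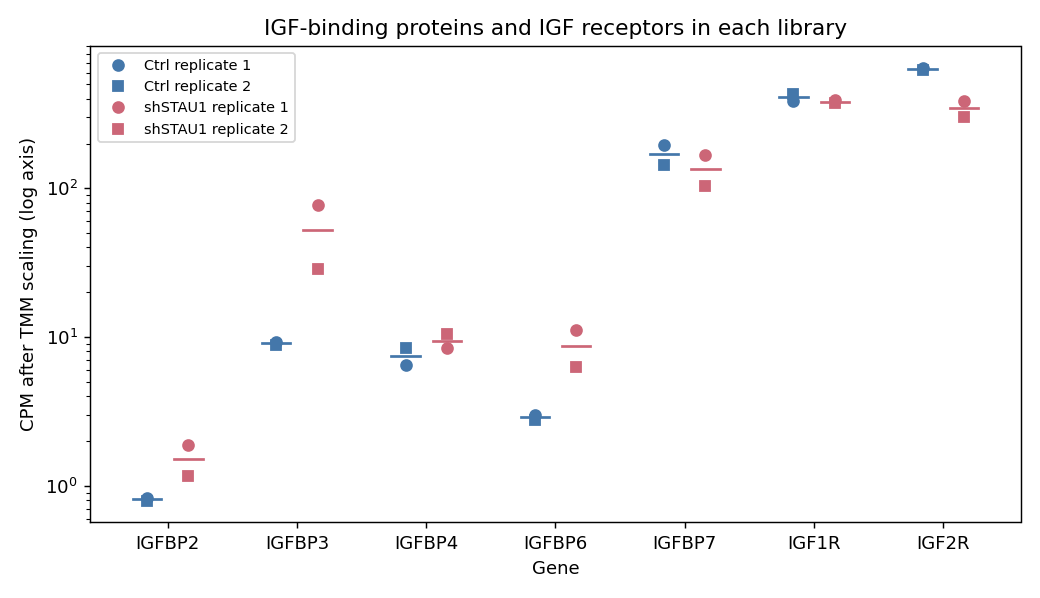
Level of each of the 7 genes in CPM after TMM scaling (log axis) in the 2 Ctrl libraries (blue) and the 2 shSTAU1 libraries (red), with a line at each group's mean. IGFBP3 sits at 9.28 and 8.83 CPM in Ctrl and at 77.1 and 28.6 CPM in shSTAU1, and IGF2R at 649 and 629 CPM in Ctrl and at 388 and 301 CPM in shSTAU1.

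IGFBP3 (ENSG00000146674, chr7:45912245-45921874, minus strand), the main carrier of IGFs in blood together with the acid-labile subunit IGFALS, was the binding protein with the highest log2 fold change of the 5. It had 312 and 289 counts in Ctrl and 2683 and 1011 in shSTAU1. The Ctrl libraries were nearly equal, and the lower shSTAU1 library still held over 3 times their counts, while the shSTAU1 libraries were far from each other. The Ctrl mean was 9.05 ± 0.32 CPM and the shSTAU1 mean 52.8 ± 34.3 CPM (SD over 2 libraries). The log2 fold change of 2.54 (SE 0.42) was the 41st highest of all tested genes. The shSTAU1 libraries differed 2.69-fold, more than in 96.0% of tested genes, against 1.05-fold between the Ctrl libraries. The size of the rise thus depended on the library, at 1.66 on the log2 scale without shSTAU1 replicate 1 and 3.07 without shSTAU1 replicate 2. IGFBP3 was called in both fits, but they take the lone shSTAU1 library to vary like the nearly equal Ctrl libraries. These calls thus leave out the spread between the shSTAU1 libraries. IGFBP3 was not called by limma-voom (log2 fold change 2.37) or without the filter on low counts (2.53).

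The 3 tested genes whose scaled profiles over the 4 libraries lay nearest to that of IGFBP3, by Euclidean distance between centred log2 CPM, were CACNA2D2 (distance 0.20), the pseudogene RASA4DP (0.43) and HEPHL1 (0.46). CACNA2D2 had 4 and 3 counts in Ctrl and 40 and 15 in shSTAU1, and HEPHL1, a copper-binding ferroxidase gene, had 27 and 32 counts in Ctrl and 197 and 95 in shSTAU1. All 3 have, like IGFBP3, shSTAU1 replicate 1 above shSTAU1 replicate 2 and both above the Ctrl libraries. This order follows from picking them for a like profile and is not a finding. Of the 3, 2 had under 5 counts in each Ctrl library. The likeness rests on 4 libraries only.

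IGFBP6 (ENSG00000167779, chr12:53097436-53102345, plus strand) had 101 and 91 counts in Ctrl and 387 and 221 in shSTAU1. Its groups did not overlap, and shSTAU1 replicate 1 was again the higher library, 1.78-fold above shSTAU1 replicate 2. The Ctrl mean was 2.89 ± 0.16 CPM and the shSTAU1 mean 8.68 ± 3.44 CPM (SD over 2 libraries), and the log2 fold change of 1.59 (SE 0.33) ranked 156th from the highest. It was not called at an adjusted p under 0.05 and was called at a threshold of 0.10, by the 1.5-fold criterion, with the replicate number as a block, with DESeq2 (1.58) and when either shSTAU1 library was left out (1.11 without replicate 1 and 1.92 without replicate 2).

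IGFBP2 (ENSG00000115457, chr2:216632828-216664436, plus strand), which binds both IGFs, was counted rarely in all libraries, with 28 and 26 counts in Ctrl and 65 and 41 in shSTAU1. The groups did not overlap, though the 95% exact Poisson interval of the lower shSTAU1 library, 29.4 to 55.6 counts, overlaps that of the higher Ctrl library, 18.6 to 40.5 counts, and such intervals cover counting error only. The log2 fold change of 0.89 (SE 0.46) did not pass the threshold in any of the fits run, and it ran from 0.51 without shSTAU1 replicate 1 to 1.18 without shSTAU1 replicate 2.

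IGFBP4 (ENSG00000141753, chr17:40443461-40457731, plus strand), the substrate of the protease PAPPA, had 219 and 278 counts in Ctrl and 292 and 373 in shSTAU1, which is 6.51 and 8.49 CPM against 8.39 and 10.6 CPM. The groups overlapped on the CPM scale, and here shSTAU1 replicate 2 was the higher library. The log2 fold change was 0.34 (SE 0.24).

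IGFBP7 (ENSG00000163453, chr4:57030773-57110385, minus strand), a matrix-associated relative of the high-affinity binding proteins, had 6578 and 4666 counts in Ctrl and 5800 and 3684 in shSTAU1. Replicate 1 was the higher library in both groups, by 1.37-fold in Ctrl and 1.60-fold in shSTAU1, and the groups overlapped. Its log2 fold change was -0.32 (SE 0.24). It was called only in the fit without shSTAU1 replicate 1 (-0.70) and in the fits with the replicate number as a block (-0.34, and -0.40 with the length and GC correction). The gene shares 270 exon bases, 14.0% of its exons, with POLR2B on the opposite strand. POLR2B had 8065 and 7688 counts in Ctrl and 10369 and 11525 in shSTAU1, and reads in the shared bases cannot be assigned where the strand setting is unknown.

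**Figure D2:**
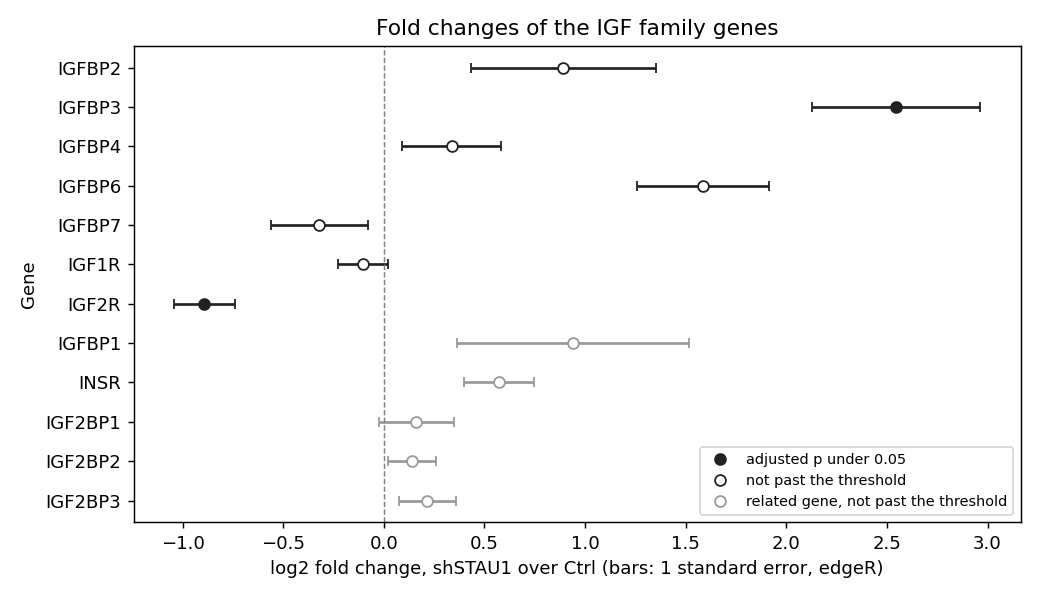
Log2 fold change of shSTAU1 over Ctrl for the 7 genes (black) and for 5 related genes (grey), with bars of 1 standard error from edgeR and filled points for genes called at an adjusted p under 0.05. IGFBP3 lies highest at 2.54, IGF2R is the lowest at -0.89 and IGF1R lies at -0.10.

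Levels were compared between genes per length, in CPM per kilobase of the union of a gene's exons. In Ctrl, IGFBP7 stood highest at 87.6 ± 19.5, followed by IGF2R at 35.8 ± 0.77 and IGF1R at 29.5 ± 2.18 CPM per kilobase. IGFBP4 at 3.41 ± 0.64, IGFBP6 at 2.15 ± 0.12 and IGFBP3 at 1.98 ± 0.070 came next and IGFBP2 was lowest at 0.17 ± 0.0057 CPM per kilobase (SD, n = 2 each). In Ctrl, neighbours in this order did not overlap, but IGFBP6 and IGFBP3 lay close, at 2.23 and 2.06 against 2.03 and 1.93 CPM per kilobase. In shSTAU1 the order was IGFBP7 at 70.2 ± 22.8, IGF1R at 27.4 ± 0.97, IGF2R at 19.3 ± 3.44, IGFBP3 at 11.6 ± 7.50, IGFBP6 at 6.45 ± 2.55, IGFBP4 at 4.31 ± 0.70 and IGFBP2 at 0.32 ± 0.10 CPM per kilobase. There the libraries of IGFBP3 overlapped with those of IGFBP6, and those of IGFBP6 with those of IGFBP4. The order depends on the length used. In Ctrl, IGFBP3 stood above IGFBP6 per kilobase of coding sequence (9.39 against 3.72 CPM) and of the longest annotated transcript (3.75 against 2.46 CPM). Per kilobase of coding sequence, which is closer to what an exome capture kit targets, IGF1R stood above IGF2R in Ctrl too, at 100.1 against 85.1 CPM per kilobase, and in shSTAU1 IGFBP3 and IGF2R overlapped, at 79.9 and 29.7 against 51.7 and 40.1 CPM per kilobase.

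Within the binding proteins, the summed level per length of IGFBP1 to IGFBP6 was 7.56 and 8.28 CPM per kilobase in Ctrl and 29.7 and 16.4 in shSTAU1. Both shSTAU1 sums lay above both Ctrl sums, which mainly restates the values of IGFBP3 and IGFBP6, genes chosen with this contrast known. IGFBP3 made up 26.8% and 23.3% of that sum in Ctrl and 56.7% and 38.3% in shSTAU1, and IGFBP4 39.1% and 46.6% in Ctrl and 12.8% and 29.3% in shSTAU1. The share of IGFBP6 lay between 24.9% and 29.5% in the 4 libraries. Shares depend on the length used. Per kilobase of coding sequence, a setting added after the data were seen, IGFBP3 made up 41.8% and 36.6% in Ctrl and 74.2% and 55.7% in shSTAU1, and IGFBP6 between 13.3% and 16.7%. With IGFBP7 included, IGFBP7 alone took 93.1% and 89.9% of the sum in Ctrl and 74.4% and 76.8% in shSTAU1.

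**Figure D3:**
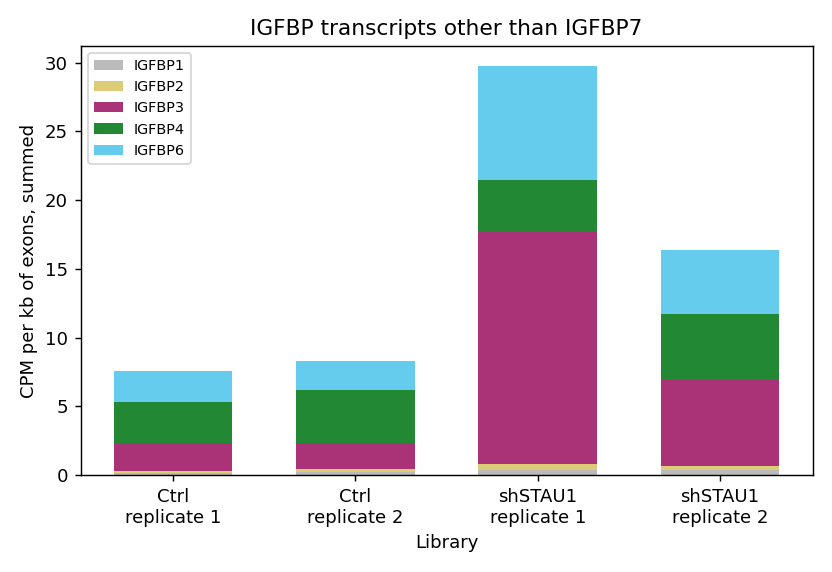
Summed level of the binding protein genes other than IGFBP7 in each library, in CPM per kilobase of exons, with 1 coloured block per gene (IGFBP5, at most 2 counts in a library, is not drawn). The bars reach 7.56 and 8.28 in Ctrl and 29.7 and 16.4 in shSTAU1, and the IGFBP3 block grows from 2.03 and 1.93 to 16.9 and 6.26.

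IGF2R (ENSG00000197081, chr6:159969099-160113507, plus strand) had 21811 and 20604 counts in Ctrl and 13499 and 10638 in shSTAU1. In mean CPM, which is not corrected for its length of 17843 exon bases, it lay above 97.9% of tested genes. Both shSTAU1 libraries lay well below both Ctrl libraries for IGF2R. Its level fell from a Ctrl mean of 639 ± 13.7 CPM to a shSTAU1 mean of 344 ± 61.3 CPM (SD over 2 libraries). This is 0.54 times the control level, and the log2 fold change was -0.89 (SE 0.15). The Ctrl libraries differed 1.03-fold and the shSTAU1 libraries 1.29-fold. IGF2R was called in both fits that left out a shSTAU1 library, where the lone shSTAU1 library is assumed to vary like the Ctrl libraries. Since the Ctrl libraries lay closer together, these calls leave out the spread between the shSTAU1 libraries. With either Ctrl library left out, where the lone Ctrl library is assumed to vary like the shSTAU1 libraries, and with no filter on low counts, its fold change stayed near the same value but it was no longer called (-0.89 without Ctrl replicate 1, -0.91 without Ctrl replicate 2 and -0.90 with no filter).

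IGF1R (ENSG00000140443, chr15:98648539-98964530, plus strand) had 13083 and 14147 counts in Ctrl and 13625 and 13153 in shSTAU1, or 389 and 432 CPM against 391 and 372 CPM. The groups overlapped, and the log2 fold change was -0.10 (SE 0.12), with a sign that turned, to 0.053, under the correction for transcript length and GC content. INSR, the insulin receptor and the closest relative of IGF1R, had 1709 and 1684 counts in Ctrl and 3051 and 2273 in shSTAU1. Its log2 fold change was 0.57 (SE 0.17, adjusted p = 0.102, edgeR's quasi-likelihood test), and it was called by DESeq2, under the replicate block and without shSTAU1 replicate 2 (0.76 in the last).

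Ratios taken within a library do not depend on the scaling between libraries. The ratio of IGF2R to IGF1R, both per kilobase of exons, was 1.30 and 1.14 in Ctrl and 0.77 and 0.63 in shSTAU1, and the ratio of IGF2R to M6PR, the other mannose 6-phosphate receptor, was 2.63 and 2.09 in Ctrl and 1.10 and 0.80 in shSTAU1. In both ratios the groups stood apart, which mainly restates the lower values of IGF2R, a gene chosen with this contrast known. The ratio of INSR to IGF1R was 0.17 and 0.16 in Ctrl and 0.30 and 0.23 in shSTAU1, and that of IGFBP3 to IGF1R was 0.073 and 0.062 in Ctrl and 0.60 and 0.23 in shSTAU1. The IGFBP6 to IGFBP4 ratio was 0.75 and 0.54 in Ctrl and 2.17 and 0.97 in shSTAU1. Their size depends on the length used, but their change between libraries does not. Such ratios show unequal change and do not say which of the paired genes changed.

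**Figure D4:**
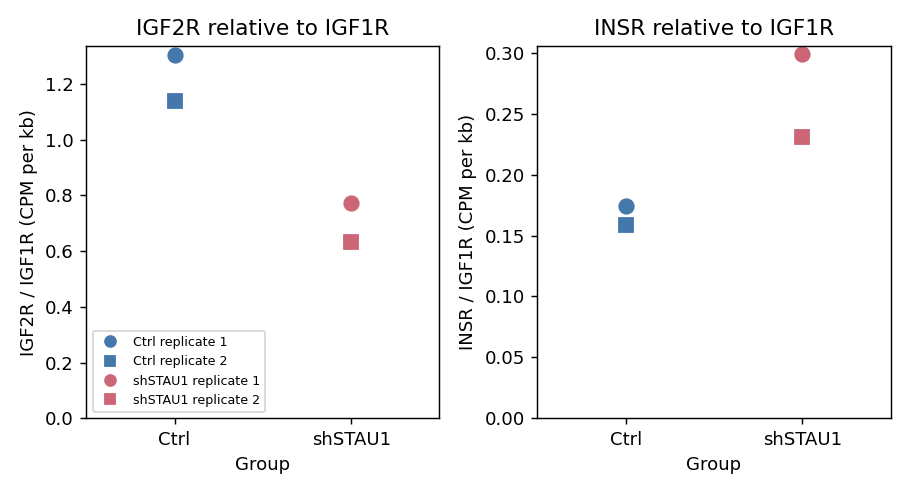
Ratio of IGF2R to IGF1R (left) and of INSR to IGF1R (right) in each library, both in CPM per kilobase of exons on axes that start at 0. IGF2R to IGF1R falls from 1.30 and 1.14 in the Ctrl libraries to 0.77 and 0.63 in the shSTAU1 libraries, and INSR to IGF1R goes from 0.17 and 0.16 to 0.30 and 0.23.

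The 250 bases before RefSeq's transcription start are printed for IGFBP3 and IGFBP6, the binding proteins with the highest fold changes, and for IGF2R, to show what kind of promoters these genes have. They are RefSeq sequences on GRCh38.p14, 5′ to 3′ along the gene's strand. The IGFBP3 window and most of the IGFBP6 window lie within the GENCODE 29 span of the gene, whose outermost start is farther upstream, so they precede one of the annotated starts only. Capitals mark, on either strand, the TATA box as TATAAA, its variant with the letters TATATA (added after the IGFBP3 window had been seen), the CCAAT box, and the GC box with the letters GGGCGG.
IGFBP3, chr7:45921273-45921522, minus strand: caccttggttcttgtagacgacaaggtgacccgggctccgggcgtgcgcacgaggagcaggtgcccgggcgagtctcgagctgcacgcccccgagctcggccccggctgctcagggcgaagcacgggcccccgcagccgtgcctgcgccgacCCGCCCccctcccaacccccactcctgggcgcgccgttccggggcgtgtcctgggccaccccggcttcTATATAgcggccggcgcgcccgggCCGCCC
IGFBP6, chr12:53097417-53097666, plus strand: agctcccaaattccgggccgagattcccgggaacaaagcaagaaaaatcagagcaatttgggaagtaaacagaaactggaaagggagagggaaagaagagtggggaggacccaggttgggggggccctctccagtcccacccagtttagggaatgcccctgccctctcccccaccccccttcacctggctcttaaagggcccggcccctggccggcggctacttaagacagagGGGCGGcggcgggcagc
IGF2R, chr6:159968832-159969081, plus strand: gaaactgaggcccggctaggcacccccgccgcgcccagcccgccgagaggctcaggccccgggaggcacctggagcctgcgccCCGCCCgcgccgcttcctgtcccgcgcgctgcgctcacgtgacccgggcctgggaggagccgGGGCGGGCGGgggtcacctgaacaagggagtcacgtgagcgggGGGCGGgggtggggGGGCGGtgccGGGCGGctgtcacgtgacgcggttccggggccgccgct
The IGFBP3 window, counted with the next 50 bases, held 1 TATATA, 2 GGGCGG and 36 CpG dinucleotides, the IGFBP6 window 1 GGGCGG and 12 CpG, and the IGF2R window 6 GGGCGG, of which 2 overlap, and 41 CpG. Of 35116 promoter windows of the same length, 3.99% held TATATA and 45.0% held GGGCGG, while TATAAA (11.5% of windows) and CCAAT (34.6%) were in none of the 3. IGFBP3 lies tail to tail with IGFBP1 on chromosome 7, 18576 bases apart with no annotated gene between them. IGFBP1 had 9 and 14 counts in Ctrl and 23 and 24 in shSTAU1, with a log2 fold change of 0.94 (SE 0.58, adjusted p = 0.349, edgeR's quasi-likelihood test). IGFBP2 lies 7668 bases from IGFBP5 on chromosome 2 in the same arrangement, and IGFBP5 had at most 2 counts in any library.

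The rest of the pathway was read from 7 lists of 84 distinct genes, of which 68 were tested. None of these 68 was called higher (beside 1.13% of all tested genes) and 1, STC2, was called lower (beside 1.48%). Their median log2 fold change was -0.01, beside 0.0059 over all tested genes. The ligands IGF1 and IGF2 were listed at 0 in all 4 libraries. This cannot be read as absence, since HRAS and RPL7A, genes that most cells express (looked up after their values were seen), were also listed at 0. IGFALS had 8 and 2 counts in Ctrl and 0 in both shSTAU1 libraries, too few for a fold change.

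**Figure D5:**
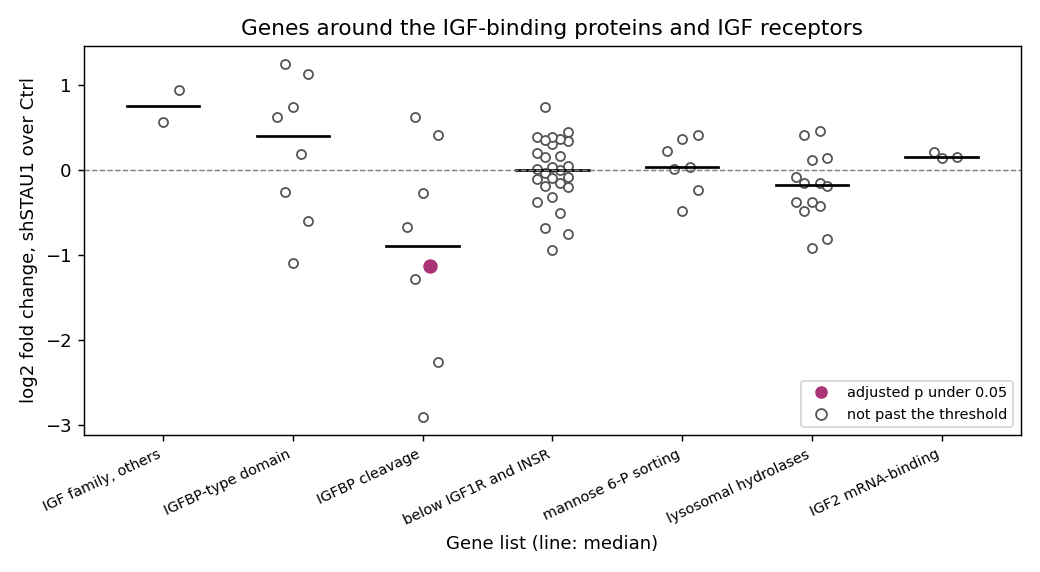
Log2 fold change of shSTAU1 over Ctrl for the tested genes of 7 lists around the IGF-binding proteins and receptors, 1 point per gene, with a line at each list's median and a filled point for the gene called at an adjusted p under 0.05. The filled point is STC2 at -1.13 in the list of cleavage genes. In that list 6 of 8 points lie below 0, beside 7092 of all 14303 tested genes.

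Among the genes that cut binding proteins or restrain the cutting, 8 of 9 were tested. Of these, 0 were called higher and 1 lower (beside 1.13% and 1.48% of all tested genes). The median was -0.90 on the log2 scale, and 6 of the 8 lay below 0, beside 7092 of all 14303 tested genes. The list mixes proteases with their inhibitors, was chosen with earlier results known and holds genes with few counts, so no common fall is read from it. STC2, which inhibits the protease PAPPA, had 1976 and 1879 counts in Ctrl and 1092 and 768 in shSTAU1. Both shSTAU1 libraries were lower, with a log2 fold change of -1.13 (SE 0.19, adjusted p = 0.0360, edgeR's quasi-likelihood test), and STC2 lost its call only with no filter on low counts, of the settings run. PAPPA itself was near the limit of counting, with 23 and 14 counts in Ctrl and 2 and 3 in shSTAU1, and its adjusted p was 0.0777 in the same edgeR test. It was called at a threshold of 0.10, by the 1.5-fold criterion and under the replicate block. STC1, the relative of STC2, had 16 and 23 counts in Ctrl and 16 and 10 in shSTAU1 (adjusted p = 0.533, edgeR). HTRA1, a secreted serine protease that itself carries an IGFBP-type domain, had 2875 and 1655 counts in Ctrl and 4536 and 2812 in shSTAU1, with overlapping groups (log2 fold change 0.63, adjusted p = 0.237, edgeR). It was called under the replicate block and without shSTAU1 replicate 2 (0.92).

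Of 13 other genes whose proteins have an IGFBP-type domain, 8 were tested and 0 were called, with a median log2 fold change of 0.41. CCN1, a matrix protein, had a log2 fold change of -0.60 (SE 0.21, adjusted p = 0.137, edgeR), and it was called by DESeq2, by the 1.5-fold criterion, under the replicate block and without shSTAU1 replicate 1 (-0.77). Its value ran from -0.87 to -0.28 with 1 library left out. Its relative CCN2 had one of 0.19 (SE 0.22, adjusted p = 0.632, edgeR), which turned to -0.090 without shSTAU1 replicate 2. Of 32 genes of signalling below IGF1R and INSR, 28 were tested and 0 were called, with a median of 0.0098. Above 0 lay 15 of the 28, beside 7211 of all 14303 tested genes. IRS1 and IRS2, the adaptor proteins that IGF1R phosphorylates, had log2 fold changes of 0.34 (SE 0.13, adjusted p = 0.155) and 0.40 (SE 0.24, adjusted p = 0.335) in edgeR's test. IRS1 had 2216 and 2258 counts in Ctrl and 2988 and 3003 in shSTAU1, so its groups stood apart while those of IRS2 overlapped, and IRS1 was called under the replicate block.

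For the part of IGF2R in lysosomal transport, 7 genes of mannose 6-phosphate tagging and sorting and 14 lysosomal hydrolases were all tested. In either list 0 were called, with medians of 0.03 and -0.17. Below 0 lay 2 of the 7 and 10 of the 14, beside 7092 of all 14303 tested genes. Both shSTAU1 libraries lay below both Ctrl libraries for 6 of the 14 hydrolases (beside 28.0% of all tested genes) and above them for 0 (beside 28.5%). The lists were chosen with earlier results known, so no common fall is read from this. M6PR had 1753 and 2088 counts in Ctrl and 2601 and 2811 in shSTAU1, above both Ctrl libraries, with a log2 fold change of 0.41 (SE 0.15, adjusted p = 0.148, edgeR), while IGF2R was lower in the same libraries. M6PR was called under the replicate block and without shSTAU1 replicate 1 (0.46). The IGF2 mRNA-binding proteins IGF2BP1, IGF2BP2 and IGF2BP3, which bind and stabilise mRNAs and are not IGF-binding proteins despite the like name, had log2 fold changes of 0.16, 0.14 and 0.22 (adjusted p = 0.625, 0.497 and 0.375, edgeR).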

How the data were processed

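RNA was prepared with a TruSeq RNA Exome kit, which captures coding exons, from 2 Ctrl and 2 shSTAU1 libraries. The authors deposited whole-number counts per gene without normalization, with 67008 Ensembl identifiers. The submitters' processing notes name Partek and hg38, and the aligner, the counter and its strand setting are not given in the sources used here. Positions and lengths came from GENCODE 29, which holds 58561 of the identifiers and 99.9% of the counts. Other identifiers (8447) were counted but not placed.

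The 7 genes and all gene lists were chosen with earlier results of these data known. Differential expression was computed in edgeR 4.0.16 under R 4.3.3 (filterByExpr, TMM, quasi-likelihood test, Benjamini-Hochberg adjustment, threshold 0.05) over all 14303 genes that passed the filter. The biological coefficient of variation was 19.1%. With 2 against 2 libraries no permutation test gives a two-sided p below 0.333, so tests rest on spread shared across genes. Replicate libraries were kept apart, as a chi-square test of their counts gave 25.4 (Ctrl) and 61.6 (shSTAU1) per degree of freedom, above sampling noise. Alternatives were DESeq2 1.42.0, limma-voom (limma 3.58.1), scaling by library size only, no filter, the replicate number as a block, a correction for length and GC content (99.0% of tested genes), other thresholds and leaving out each library. The models were run on simulated counts in which the changes were larger than most reported here. The simulation held no replicate effect, so it does not show how the models fare with smaller changes or with such an effect. Genes were named by rule: the 7 genes, STAU1, every called gene of the 7 lists, a fixed set of relatives and partners, and the 3 genes nearest in profile to IGFBP3. One gene of the lists is not reported here. The floor for a count of 0 was set at 3 counts, or 0.083 to 0.093 CPM by library before TMM scaling.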

Additional observations from a re-analysis of the deposited data

How the results depend on the processing

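STAU1 was called in all alternatives run. At first 372 genes (2.6% of those tested) and 2 of the 7 IGF-binding protein and receptor genes were called. An adjusted p under 0.10 gave 1585 genes (11.1%). A 1.5-fold change at an unadjusted p under 0.05 gave 2098 (14.7%) and DESeq2 gave 1449 (10.1%). IGFBP3, IGF2R and IGFBP6 (log2 fold change 1.59, and 1.58 with DESeq2) were called in each of these alternatives. With no filter on low counts 11 genes (0.0443% of the 24804 then tested) and 0 of the 7 were called (IGFBP3 2.53, IGF2R -0.90). With limma-voom, which called 2.54% of tested genes, 1 of the 7, IGF2R, was called (IGFBP3 2.37). The length and GC correction turned IGF1R to 0.053, and to 0.054 with the block. Of the pathway genes, 68 of them tested at first, 1 was called at first, 6 with DESeq2 or an adjusted p under 0.10 and 11 with the fold criterion. There were 2 with library size only (beside 2.82% of all tested genes) and 0 with no filter.

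The labels give both groups replicate numbers 1 and 2 but do not say that a number marks a batch. The sample descriptions also share a leading number across groups (1-1_shLuc with 1-2_shSTAU1, 2-1_shLuc with 2-2_shSTAU1), whose meaning is not given. Deviations of same-numbered libraries correlated at 0.27. With the replicate block 4087 genes (28.6% of those tested), 4 of the 7 genes (IGFBP6 1.54 and IGFBP7 -0.34 were added) and 25 pathway genes were called. With the block and the length and GC correction these were 3922 (27.7%), 4 (IGFBP6 1.48, IGFBP7 -0.40) and 27. At such shares the added calls are not read as a result about these genes.

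With 1 library left out, the calls ran from 214 to 2625 genes, from 1 to 4 of the 7 genes and from 2 to 14 pathway genes. The highest of each of these counts came from the same fit, that without shSTAU1 replicate 1. That fit takes the lone shSTAU1 library to vary like the Ctrl libraries and called more genes of all kinds. Its added calls are thus not read as a result about these genes. Log2 fold changes ran from 1.66 to 3.07 for IGFBP3, 1.11 to 1.92 for IGFBP6 and -0.70 to -0.041 for IGFBP7. They ran from -1.09 to -0.74 for IGF2R and from -0.090 to 0.41 for CCN2. Medians near 0 changed sign. That of signalling genes was -0.042 with library size only, -0.0051 with limma-voom, -0.0046 with the block and -0.046 to 0.011 with 1 library left out. That of mannose 6-phosphate sorting was -0.016 with library size only and -0.12 to 0.16 with 1 library left out, and that of lysosomal hydrolases reached 0.0090. The causes were not tested.

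Levels in Ctrl, in CPM per kilobase of coding sequence and of the longest annotated transcript, were 0.76 and 0.18 for IGFBP2, 9.39 and 3.75 for IGFBP3, 3.72 and 2.46 for IGFBP6, 198 and 118 for IGFBP7, 100.1 and 33.6 for IGF1R and 85.1 and 45.5 for IGF2R, and 9.69 per coding kilobase for IGFBP4. Depth limits IGFBP2, IGFBP1 and PAPPA, with under 30 counts in a library.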
